A study of Mus musculus with 6 samples.

Results

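The pericentral and Wnt target genes examined here were 10 genes, Glul, Cyp2e1, Cyp1a2, Oat, Rgn, Lhpp, Slc1a2, Axin2, Lgr5 and Tbx3, taken by symbol from the 52459 genes of the liver RNA-Seq count table. All 10 were in the table and all 10 passed the filter on low counts, which left 17032 genes. Only Cyp2e1, which rose 1.95-fold in sgPrdx2 livers, passed the test over all genes. That call was lost when any of the 6 livers was left out, and when the libraries were scaled to hepatocyte genes. Rgn, Lhpp, Oat and Glul were also above every sgCtrl liver in every sgPrdx2 liver, without passing the test. So were 16.7% of all 17032 genes, called or not. Axin2, the feedback gene of the Wnt pathway, was the only member whose log2 fold change was below 0. These directions held for Cyp2e1, Rgn, Lhpp, Oat and Axin2 under every scaling tried, and turned for Glul, Cyp1a2, Lgr5, Slc1a2 and Tbx3 when the libraries were scaled to hepatocyte genes.

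The 6 livers came from male Alb-Cre/Cas9 F1 mice (strain C57BL6J), in which Alb-Cre drives Cas9 in hepatocytes, so that other liver cells were not the target of the editing. At 4 to 5 weeks of age the mice received AAV8 with either a control guide RNA (sgCtrl, livers 5.1, 7.1 and 7.2) or a guide RNA against the peroxiredoxin gene Prdx2 (sgPrdx2, livers 1.1, 1.3 and 3.2). Both groups were given 100 mg/kg of the hepatocarcinogen diethylnitrosamine (DEN) 3 weeks later and, after 1 further week, a high-fat diet of defined amino acids without choline (CDA-HFD) for 6 months, and were 8 months old at collection. RNA was taken from whole liver, with 3 livers in each group. The comparison asked how loss of Prdx2 in hepatocytes altered the transcriptome of livers under this carcinogen and diet.

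Hepatocytes differ along the axis from the portal vein to the central vein. Around the central vein, endothelial cells secrete Wnt ligands and R-spondin, which stabilise beta-catenin in the neighbouring hepatocytes and so maintain a program of glutamine synthesis and xenobiotic oxidation. Hepatocytes near the portal vein instead make urea and glucose. Glul, Axin2, Lgr5, Tbx3, Slc1a2, Oat, Rgn and Lhpp are known as genes of the cells closest to the central vein, whereas Cyp2e1 and Cyp1a2 are oxidases of a wider pericentral band. Some mouse liver tumors also carry an active beta-catenin and express Glul.

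The libraries held 37462102 to 56865293 counts, so that 3 counts stood for 0.0555 to 0.0921 counts per 1000000 (CPM) after scaling by the trimmed mean of M-values (TMM). The Prdx2 transcript did not separate the groups, with 109, 117 and 132 CPM in sgCtrl livers 5.1, 7.1 and 7.2 and 99.0, 112 and 149 CPM in sgPrdx2 livers 1.1, 1.3 and 3.2 (log2 fold change 0.01, SE 0.18). Cas9 often leaves insertions or deletions of a few bases, and transcripts that carry them can still be counted, so this level is no check of the guide. Why the level did not differ was not tested. The authors reported suppressed PRDX2 protein in hepatocytes of sgPrdx2 mice, with positive islets left. The make-up of the libraries differed between groups: the summed level of 20 hepatocyte genes of all zones was 105290 to 117310 CPM in sgCtrl and 178859 to 243360 CPM in sgPrdx2 livers, and the TMM factors were 1.12 to 1.17 and 0.805 to 0.951. Of 6 reference genes edgeR and DESeq2 called 0 and 0 had an unadjusted p under 0.05, and Polr2a, Ppia, Hprt, Rplp0 and Ywhaz had log2 fold changes of -0.18, 0.22, -0.08, 0.04 and -0.07 (adjusted p = 0.383, 0.413, 0.677, 0.939 and 0.746).

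The stretch of 250 bases before the RefSeq start site is shown for Cyp2e1, the member that passed the test, for Cyp1a2 and Slc1a2, which hold the same short match, and for Axin2, whose log2 fold change had the opposite sign. The windows are from GRCm38.p6, at chr7:140763569-140763818 (plus strand) for Cyp2e1, chr9:57683656-57683905 (minus strand) for Cyp1a2, chr2:102706188-102706437 (plus strand) for Slc1a2 and chr11:108920099-108920348 (plus strand) for Axin2, each printed 5′ to 3′ along the gene. The Slc1a2 window lies inside the gene model given below, before a RefSeq start downstream of the model's first base, and the windows of Cyp2e1 and Cyp1a2 reach into the first bases of theirs. Capitals mark CTTTGA, the core of the sequence bound by TCF and LEF factors, on either strand (TCAAAG), and the TATA box letters TATAAA.
Cyp2e1: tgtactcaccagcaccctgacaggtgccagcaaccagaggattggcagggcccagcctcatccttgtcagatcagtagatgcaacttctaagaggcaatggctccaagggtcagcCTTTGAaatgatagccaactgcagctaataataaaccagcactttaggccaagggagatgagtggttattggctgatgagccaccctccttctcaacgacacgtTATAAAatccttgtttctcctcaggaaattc
Cyp1a2: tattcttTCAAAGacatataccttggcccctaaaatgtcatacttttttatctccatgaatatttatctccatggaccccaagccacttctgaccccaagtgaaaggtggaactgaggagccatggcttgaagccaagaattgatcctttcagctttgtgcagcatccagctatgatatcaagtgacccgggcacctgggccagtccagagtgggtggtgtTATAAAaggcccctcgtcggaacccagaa
Slc1a2: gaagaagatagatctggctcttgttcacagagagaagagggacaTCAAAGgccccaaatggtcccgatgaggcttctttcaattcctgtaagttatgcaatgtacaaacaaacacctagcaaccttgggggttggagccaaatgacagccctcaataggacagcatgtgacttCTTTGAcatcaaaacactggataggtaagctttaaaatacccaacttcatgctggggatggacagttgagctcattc
Axin2: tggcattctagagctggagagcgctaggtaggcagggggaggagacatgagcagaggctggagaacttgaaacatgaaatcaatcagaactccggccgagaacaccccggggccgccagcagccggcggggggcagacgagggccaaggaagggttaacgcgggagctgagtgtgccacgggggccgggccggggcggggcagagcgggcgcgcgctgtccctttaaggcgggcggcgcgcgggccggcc
RefSeq start sites were at hand for 6 of the 10 members (Glul, Cyp2e1, Cyp1a2, Oat, Axin2 and Slc1a2). CTTTGA or its reverse complement occurred in 3 of these 6 windows and in 13.8% of 32851 windows of the same length over all promoters. In Cyp2e1 it lay 135 to 130 bases before the start, in Cyp1a2 243 to 238 bases before it, and in Slc1a2 both 206 to 201 and 77 to 72 bases before it. The Glul, Oat and Axin2 windows held no such letters. TATAAA was present in Cyp2e1 (31 to 26 bases before the start) and Cyp1a2 (29 to 24), and in 12.4% of all windows. These are matches of letters and not measured binding sites.

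Cyp2e1 encodes the pericentral cytochrome P450 that oxidises ethanol, acetone and nitrosamines, DEN among them (chr7:140763739-140774987, plus strand). Its level was 5308, 5049 and 3922 CPM in sgCtrl livers 5.1, 7.1 and 7.2 and 9425, 8692 and 9698 CPM in sgPrdx2 livers 1.1, 1.3 and 3.2. The lowest sgPrdx2 liver was 1.64 times the highest sgCtrl liver, while the highest sgCtrl liver was 1.35 times the lowest and the sgPrdx2 livers differed by 1.12 times. The log2 fold change was 0.96 (SE 0.18, 95% interval 0.55 to 1.38, edgeR adjusted p = 0.0409). Of all genes tested, 1.79% were called higher and 1.54% lower in sgPrdx2, and 1 of 10 members is a single gene. Cyp2e1 lost the call when any of the 6 livers was left out (adjusted p = 0.0537 to 0.157), with log2 fold changes of 0.84 to 1.05. It was also lost with scaling to the hepatocyte genes (0.18, adjusted p = 0.411).

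Cyp1a2, the P450 that metabolises caffeine and aromatic amines and is induced through the aryl hydrocarbon receptor, varied far more (chr9:57676937-57683703, minus strand). It was at 683, 347 and 223 CPM in sgCtrl and at 584, 420 and 812 CPM in sgPrdx2 livers, in the order 5.1, 7.1, 7.2 and 1.1, 1.3, 3.2 used below for every gene. Its highest sgCtrl liver was 3.06 times the lowest, and that liver, 5.1, exceeded 2 of the 3 sgPrdx2 livers. The log2 fold change of 0.54 had a 95% interval of -0.41 to 1.48 (SE 0.41, adjusted p = 0.443), and without liver 5.1 it was 1.09 (adjusted p = 0.171). Of 5 other genes induced by the same receptor, 0 passed the edgeR test, 1 had an unadjusted p under 0.05 and DESeq2 called 1. Over all 17032 genes these counts were 567, 4241 and 2118. All 5 had a log2 fold change below 0, from -1.09 to -0.10 with a median of -0.46, which was -0.17 without sgCtrl liver 5.1, -0.73 without sgCtrl 7.1 and -0.74 without sgPrdx2 1.1. Without sgPrdx2 1.3, 1 of the 5 was above 0. Cyp1b1, a P450 found mainly outside hepatocytes, was at 14.3, 9.70 and 7.90 CPM in sgCtrl and 5.24, 5.44 and 4.24 CPM in sgPrdx2 livers (adjusted p = 0.0530). The quinone reductase gene Nqo1 (-0.74, adjusted p = 0.219), highest in liver 5.1 at 85.0 CPM, and Tiparp (-0.24, adjusted p = 0.333) overlapped between groups.

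Rgn encodes regucalcin, a calcium-binding lactonase of the ascorbate pathway (chrX:20549787-20562089, plus strand). Its level was 285, 564 and 394 CPM in sgCtrl and 967, 780 and 902 CPM in sgPrdx2 livers. The groups did not overlap, and 5.1 was the lowest liver. The log2 fold change was 1.09 (SE 0.25, 95% interval 0.51 to 1.67, adjusted p = 0.0568). Lhpp, a phosphatase that acts on phosphohistidine, lies next to Oat on chromosome 7 (chr7:132610638-132706420, plus strand). It was at 54.5, 47.0 and 43.5 CPM in sgCtrl livers, which hardly differed, and at 69.2, 95.4 and 148 CPM in sgPrdx2 livers, whose highest value was 2.14 times the lowest. The log2 fold change of Lhpp was 1.11 (SE 0.26, 95% interval 0.50 to 1.72, adjusted p = 0.0619). Rgn and Lhpp both passed under DESeq2 (adjusted p = 5.13e-04 and 0.00133), which called 1212 of all 17032 genes higher and 906 lower.

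Glutamine and glutamate handling is the work of the last layer of hepatocytes before the central vein, through Glul (glutamine synthetase), Slc1a2 (a glutamate importer) and Oat (ornithine aminotransferase, which makes glutamate semialdehyde from ornithine). Glul, at chr1:153899944-153909723 (plus strand), was at 1091, 999 and 655 CPM in sgCtrl and at 1255, 1246 and 1402 CPM in sgPrdx2 livers. The groups did not overlap, but the lowest sgPrdx2 liver was only 1.14 times the highest sgCtrl liver. The log2 fold change of Glul was 0.51 (SE 0.21, 95% interval 0.02 to 0.99, adjusted p = 0.184). Slc1a2, at chr2:102658659-102790784 (plus strand), was at 129, 88.9 and 55.9 CPM in sgCtrl and at 128, 140 and 169 CPM in sgPrdx2 livers. Liver 5.1 lay within the sgPrdx2 values, and the log2 fold change was 0.68 (SE 0.28, 95% interval 0.02 to 1.33, adjusted p = 0.190). Oat, at chr7:132557478-132576398 (minus strand), was at 177, 407 and 329 CPM in sgCtrl and at 534, 852 and 522 CPM in sgPrdx2 livers. Every sgPrdx2 liver exceeded every sgCtrl liver, with a log2 fold change of 1.06 (SE 0.33, 95% interval 0.31 to 1.82, adjusted p = 0.105). Over the 6 livers Glul and Slc1a2 had the most alike profiles of all member pairs, with a root mean square difference of 0.19 in log2 CPM centred on each gene's mean, and Oat and Axin2 the least alike, at 0.99.

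Axin2, Lgr5 and Tbx3 are direct targets of beta-catenin and TCF. Axin2 is a scaffold of the complex that degrades beta-catenin (chr11:108920349-108950783, plus strand). It was at 18.2, 13.6 and 9.65 CPM in sgCtrl and at 11.3, 11.2 and 7.43 CPM in sgPrdx2 livers, so that the groups overlapped, and the log2 fold change was -0.47 (SE 0.26, 95% interval -1.07 to 0.13, adjusted p = 0.302). Lgr5, the R-spondin receptor of pericentral hepatocytes and of intestinal stem cells (chr10:115450311-115587780, minus strand), was at 5.16, 8.61 and 4.34 CPM in sgCtrl and at 10.6, 11.3 and 6.39 CPM in sgPrdx2 livers. Here sgPrdx2 liver 3.2 lay within the sgCtrl values, and the log2 fold change was 0.65 (SE 0.31, 95% interval -0.06 to 1.36, adjusted p = 0.237). Tbx3, a T-box repressor (chr5:119670669-119684724, plus strand), was at 28.5, 20.6 and 11.6 CPM in sgCtrl and at 26.7, 16.2 and 30.3 CPM in sgPrdx2 livers, with a log2 fold change of 0.27 (SE 0.34, 95% interval -0.52 to 1.06, adjusted p = 0.648). All 3 intervals span no change, those of Tbx3 and Lgr5 also hold a doubling, and that of Axin2 also holds a halving.

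**Figure D1:**
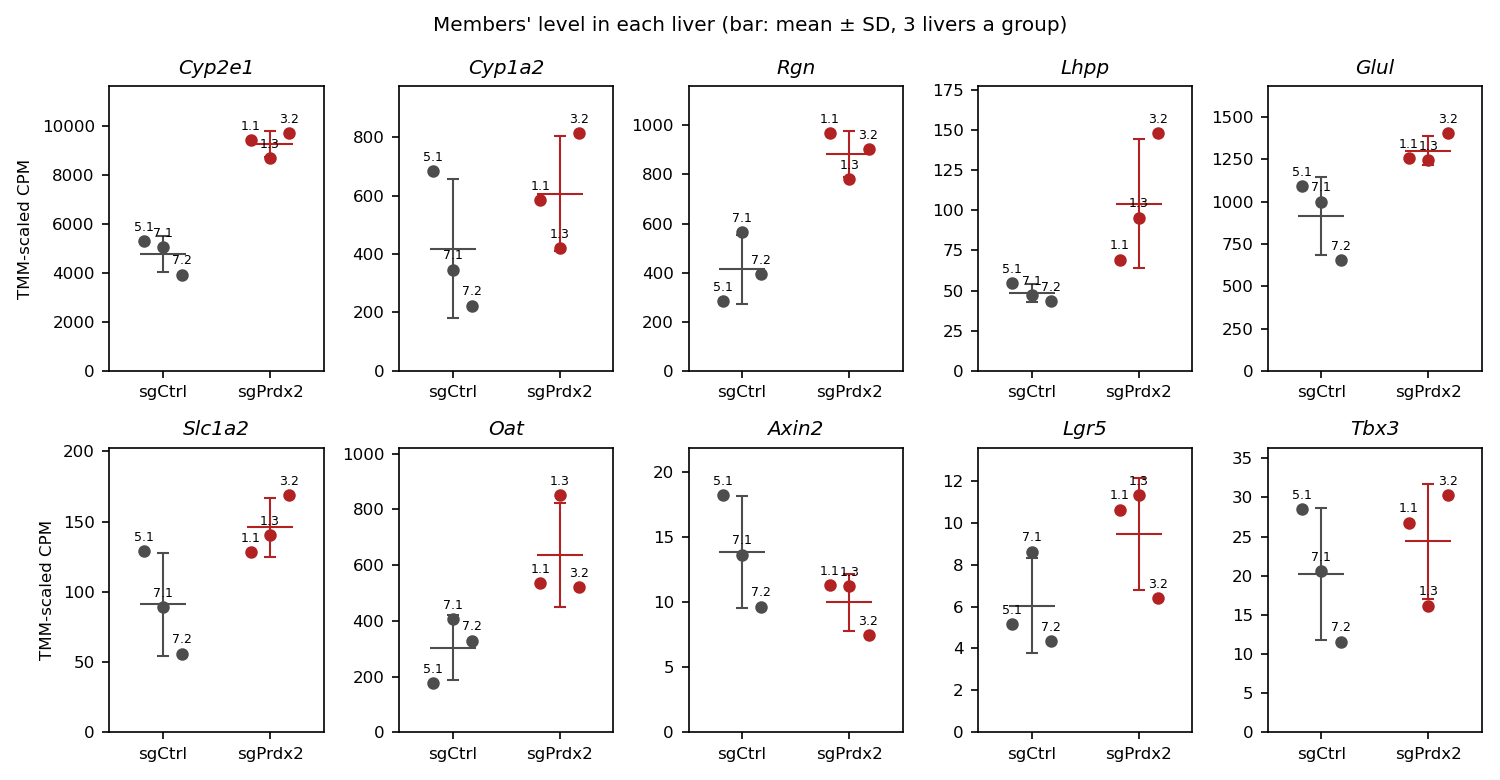
Level of each of the 10 members in TMM-scaled CPM (vertical axes from 0, each on its own scale) in the 3 sgCtrl (grey) and 3 sgPrdx2 (red) livers, labelled by mouse, with bars for the mean ± SD. Cyp2e1, Rgn, Lhpp, Oat and Glul have no overlap between groups, whereas liver 5.1 lies among the sgPrdx2 values for Cyp1a2, Slc1a2 and Tbx3 and above them for Axin2.

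Across the members, 9 of 10 log2 fold changes were above 0 and the median was 0.66 (0.44 without sgCtrl liver 7.2), beside a median of -0.02 over all genes tested. In 5 of 10 the sgPrdx2 livers all lay above the sgCtrl livers, and in 0 of 10 below, against 16.7% and 17.5% of all genes. An unadjusted p under 0.05 with a higher level in sgPrdx2 was found for 6 of 10 members and 13.0% of all genes, and an adjusted p under 0.1 for 3 (Cyp2e1, Rgn and Lhpp) and 5.66% of all genes. With the libraries scaled to the 20 hepatocyte genes, which shifted the median of all genes to -0.78, the members' median was -0.11. The values of Glul (-0.28), Cyp1a2 (-0.33), Lgr5 (-0.07), Slc1a2 (-0.14) and Tbx3 (-0.57) turned below 0. Axin2 passed the edgeR test at -1.24 (adjusted p = 0.0134), on a scale where 10589 of 17032 genes were called lower. Cyp2e1, Rgn, Lhpp and Oat stayed above 0 on that scale, at 0.18, 0.35, 0.30 and 0.37, and none of them passed the test there. The other scalings kept every member's sign.

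**Figure D2:**
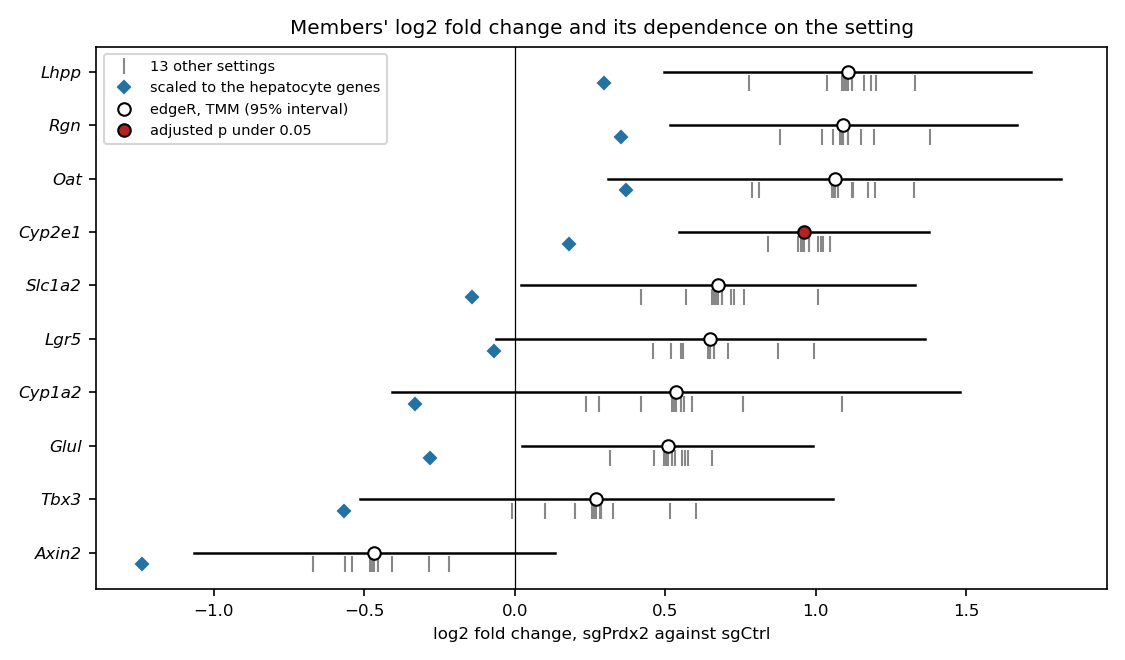
Log2 fold change of each member, sgPrdx2 against sgCtrl (horizontal axis), with its 95% interval (circle and line, red where the adjusted p was under 0.05), 13 other settings (ticks) and scaling to 20 hepatocyte genes (diamonds). Only Cyp2e1 is red, at 0.96, and the diamonds of Glul, Cyp1a2, Lgr5, Slc1a2 and Tbx3 lie on the other side of 0 from their circles.

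Per kilobase of exon, which allows levels of different genes to be compared, Cyp2e1 was far above all other members, at 2206 ± 341 CPM per kb in sgCtrl and 4296 ± 241 in sgPrdx2 livers (mean ± SD, n = 3). Glul (275 ± 69.2 and 391.6 ± 26.4), Rgn (258 ± 87.5 and 550 ± 58.9), Cyp1a2 (207 ± 118 and 301 ± 97.8) and Oat (129 ± 49.4 and 269 ± 79.2) followed, and neighbours in this order did not differ beyond their spread in sgCtrl livers. Lhpp (20.01 ± 2.33 and 43.1 ± 16.6) and Slc1a2 (6.95 ± 2.79 and 11.1 ± 1.59) were lower. The Wnt targets were the least abundant, with Tbx3 at 3.05 ± 1.28 and 3.69 ± 1.11, Axin2 at 2.51 ± 0.778 and 1.81 ± 0.400, and Lgr5 at 0.588 ± 0.221 and 0.920 ± 0.260 CPM per kb. Tbx3 and Axin2 were within their spread of each other in sgCtrl livers. Of the summed CPM of the 10 members, Cyp2e1 made up 66.9% to 72.4% in every liver.

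The members also varied within the sgCtrl group, and in a shared order. Liver 5.1 was the highest and liver 7.2 the lowest of the 3 for Glul, Cyp2e1, Cyp1a2, Slc1a2, Axin2, Tbx3 and Lhpp, 7 of 10 members, and for 10 of 24 other pericentral genes, beside 15.6% of the 14123 genes that averaged 1 CPM or more. None of 20 periportal genes had that order. Instead, 13 of 20 had the reverse, with 7.2 highest and 5.1 lowest, beside 15.1% of the 14123 genes. Oat and Rgn were lowest in 5.1, as were 16 of 20 periportal genes and also 15 of 20 hepatocyte genes of all zones. The values of Ass1, the urea cycle enzyme argininosuccinate synthase, were 238, 566 and 705 CPM in 5.1, 7.1 and 7.2, opposite in order to those of Glul. In the sgPrdx2 group, liver 3.2 was the highest for Glul, Cyp2e1, Cyp1a2, Tbx3, Slc1a2 and Lhpp and the lowest for Oat, Axin2 and Lgr5.

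**Figure D3:**
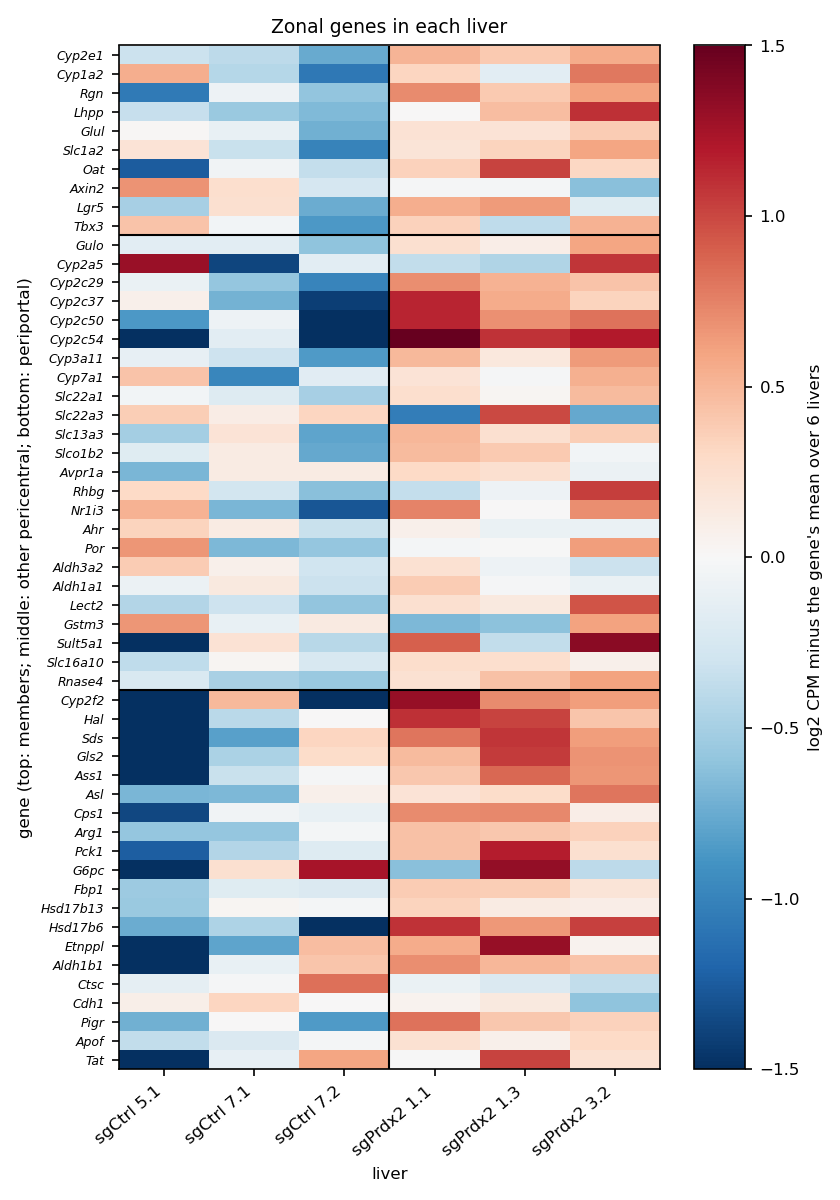
Log2 CPM minus each gene's mean over the 6 livers (colour, saturated beyond 1.5 in either direction) for the members, 24 other pericentral and 20 periportal genes (rows, separated by lines) in each liver (columns). In sgCtrl liver 5.1 most periportal genes are blue while Axin2, Cyp1a2 and Tbx3 are red. In the sgPrdx2 columns both zones are mostly red on the TMM scale. Scaling to hepatocyte genes gave a median log2 fold change of -0.27 for the other pericentral and 0.18 for the periportal genes, beside -0.78 for all genes.

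Most other pericentral genes lay on the same side as the members. Of 24 tested, 3 rose and 0 fell, beside 305 and 262 of all 17032 genes, and by DESeq2 8 and 0, beside 1212 and 906. Of the 24, 19 had a log2 fold change above 0, and the median was 0.51 (0.78 without sgCtrl liver 5.1). With scaling to the hepatocyte genes 1 was called higher and 4 lower, 8 were above 0 and the median was -0.27. Over all 17032 genes that scaling called 72 higher and 10589 lower, with a median of -0.78. Cyp2c54 and Cyp2c29, P450s of the arachidonic acid and drug metabolising Cyp2c cluster, rose by log2 fold changes of 2.41 and 1.06 (adjusted p = 0.0491 for both), and Rnase4, a secreted ribonuclease, by 0.85 (adjusted p = 0.0466). Cyp2c54 went from 15.9, 40.3 and 8.88 CPM in sgCtrl to 148, 95.1 and 102 CPM in sgPrdx2 livers, although genes of this cluster are alike in sequence and the counting of shared reads was not given in the sources used here. Cyp3a11, the main drug-oxidising P450 of mouse liver, was at 0.83 on the log2 scale without passing (adjusted p = 0.0832), and the value for Aldh1a1, a retinal dehydrogenase, was 0.18 (adjusted p = 0.602).

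Genes of the opposite, periportal zone lay on that side too. Of 20, 1 rose and 0 fell, and by DESeq2 11 and 0, beside 1212 and 906 of all 17032 genes by DESeq2. Of the 20, 18 had a log2 fold change above 0, and the median was 0.88. With scaling to the hepatocyte genes 1 was called higher and 2 lower, 13 were above 0 and the median was 0.18. The same scaling called 72 of all 17032 genes higher and 10589 lower, with a median of -0.78. Hsd17b6, a steroid dehydrogenase, rose by 1.79 on the log2 scale (adjusted p = 0.0358). Pck1 of gluconeogenesis (1.24, adjusted p = 0.0769), Pigr, the carrier of IgA into bile (1.004, adjusted p = 0.0722), and Cps1, the entry enzyme of the urea cycle (0.94, adjusted p = 0.153), did not pass. The hepatocyte genes of all zones had 20 of 20 log2 fold changes above 0 with a median of 0.75, and 5 of 20 rose (16 by DESeq2), Apoh (0.97, adjusted p = 0.0358), Ttr (1.35, adjusted p = 0.0394), Apoa1 (1.15, adjusted p = 0.0466), Alb (0.97, adjusted p = 0.0472) and Fgb (0.83, adjusted p = 0.0491), and Ahsg, another abundant one, had 0.68 (adjusted p = 0.156). These encode plasma proteins, and Cyp2e1 changed by about as much as they did.

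Most markers of other liver cells had log2 fold changes of the opposite sign, below 0, beside 8802 of all 17032 genes tested. Of 10 endothelial markers 9 had a log2 fold change below 0 (summed level 546 to 568 CPM in sgCtrl and 444 to 519 CPM in sgPrdx2 livers), of 10 stellate cell and fibroblast markers 8 (2300 to 2659 and 1687 to 1770 CPM), of 10 macrophage markers 10 (5 without sgCtrl liver 7.2, 3259 to 3683 and 2268 to 2977 CPM), of 8 cholangiocyte markers 7 (1679 to 1906 and 1263 to 1447 CPM) and of 9 lymphocyte markers 6 (95.5 to 114 and 60.3 to 81.2 CPM). The summed levels of the groups did not overlap for any of the 5 lists, and no marker was at 0 in any liver. Spp1 made up most of the cholangiocyte sum, at 1534, 1492 and 1707 CPM in sgCtrl and 1112, 1258 and 1080 CPM in sgPrdx2 livers. Lyz2 was the largest part of the macrophage sum, at 2057, 2002 and 1976 CPM in sgCtrl and 1335, 1387 and 2084.5 CPM in sgPrdx2 livers. Several medians moved when 1 liver was left out, the endothelial one from -0.33 to -0.56 (without sgPrdx2 1.1) and -0.16 (without sgPrdx2 3.2), the macrophage one from -0.40 to -0.66 (without sgCtrl 5.1) and -0.16 (without sgCtrl 7.2), and the cholangiocyte one from -0.31 to -0.057 (without sgCtrl 5.1). The lymphocyte median moved from -0.19 to -0.095, -0.32 and -0.12 (without sgCtrl 5.1, sgCtrl 7.1 and sgPrdx2 1.1). Pecam1 of endothelium (-0.77, adjusted p = 0.0423), Mpeg1 of macrophages (-0.82, adjusted p = 0.0394) and Cd8a of T cells (-0.84, adjusted p = 0.0486) fell, and of the stellate and cholangiocyte markers edgeR called 0, with 6 and 3 at an unadjusted p under 0.05, and DESeq2 called 3 and 1. Over all 17032 genes, 4241 had an unadjusted p under 0.05 in either direction, and DESeq2 called 2118. The contractile gene Acta2 (-1.49, adjusted p = 0.0584) and the matrix genes Col1a2 (-0.67, adjusted p = 0.0612), Col3a1 (-0.63, adjusted p = 0.109) and Dcn (-0.47, adjusted p = 0.149) were below every sgCtrl liver in every sgPrdx2 liver. So were Csf1r (-0.46, adjusted p = 0.110), Spp1 (-0.46, adjusted p = 0.117), Epcam (-0.37, adjusted p = 0.123), Cftr (-0.74, adjusted p = 0.200), Stab1 (-0.24, adjusted p = 0.264) and the leukocyte gene Ptprc (-0.87, adjusted p = 0.0555). Of all genes tested, 17.5% were likewise lower in sgPrdx2 livers without overlap. The groups overlapped for Lyz2 (-0.33), Eng (-0.14), Stab2 (0.27), Trbc2 (0.25) and Nkg7 (-0.23), whose adjusted p lay between 0.346 and 0.598. In whole liver, fewer cells of a type and less RNA per cell cannot be told apart, and the part of cell make-up in the members' values was not tested.

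**Figure D4:**
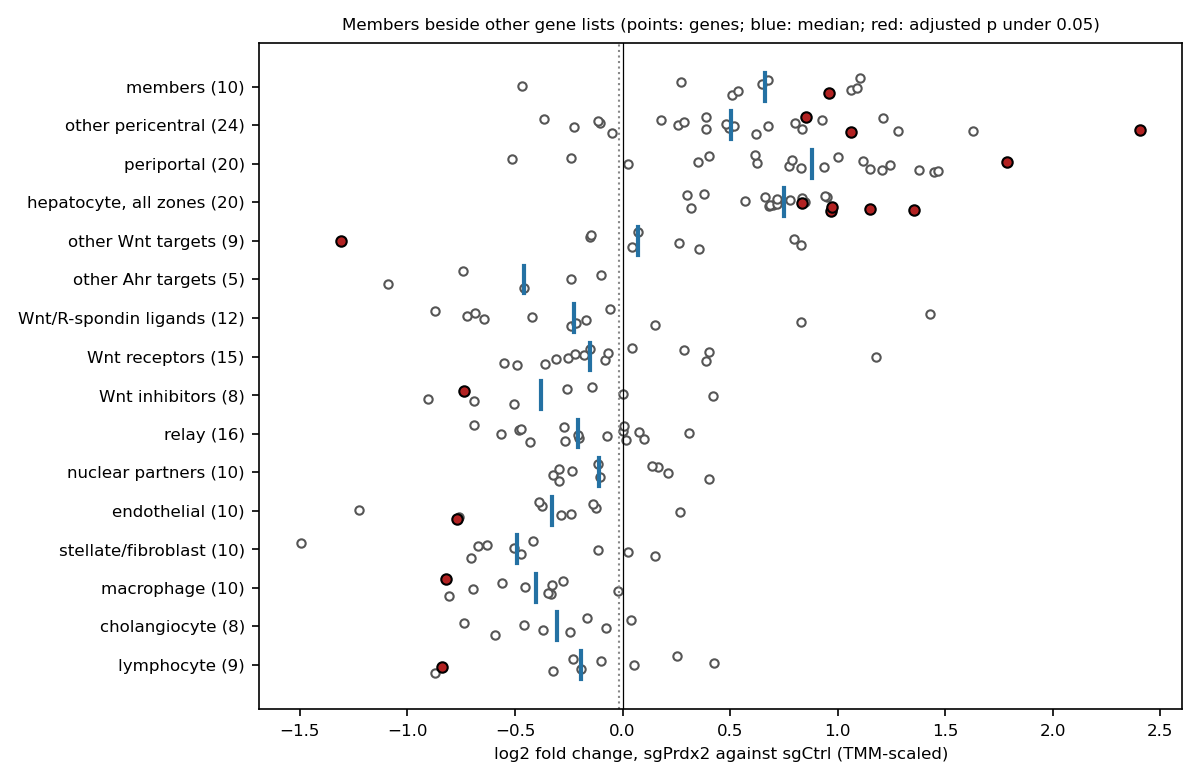
Log2 fold change on the TMM scale (horizontal axis) of each tested gene (points, red where the adjusted p was under 0.05) in the members and 15 other lists, with the list's median (blue line), 0 (solid line) and the median of all genes (dotted line); the number tested is in brackets. The medians of the 4 hepatocyte lists on top lie between 0.51 and 0.88, while those of the 5 lists of other cell types lie between -0.49 and -0.19. With scaling to hepatocyte genes the members' and the other pericentral median turned below 0, and that of all genes was -0.78.

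Because a ratio of 2 genes within a liver does not depend on how libraries are scaled, 7 such ratios were formed, chosen after the values had been seen. They compare livers and not the genes' own abundance. The ratio of Cyp2e1 to Alb was 0.0896, 0.0807 and 0.0667 in sgCtrl and 0.0738, 0.0890 and 0.0758 in sgPrdx2 livers, with means of 0.0790 ± 0.0115 and 0.0795 ± 0.00830 (SD, n = 3, exact permutation p = 1, two-sided). That of Glul to Alb was 0.0184, 0.0160 and 0.0111 in sgCtrl and 0.00983, 0.0128 and 0.0110 in sgPrdx2 livers (exact permutation p = 0.2). Lgr5 to Axin2 was 0.284, 0.631 and 0.450 in sgCtrl and 0.941, 1.01 and 0.860 in sgPrdx2 livers, and Glul to Axin2 was 59.9, 73.3 and 67.9 in sgCtrl and 111, 111 and 189 in sgPrdx2 livers. Both ratios to Axin2 were higher in every sgPrdx2 liver. The ratio of Cyp2e1 to Cyp1a2 was 7.77, 14.6 and 17.6 in sgCtrl and 16.1, 20.7 and 11.9 in sgPrdx2 livers, which overlapped (exact permutation p = 0.6). The ratio of Cyp2e1 to Glul was higher in every sgPrdx2 liver, at 4.87, 5.05 and 5.99 in sgCtrl and 7.51, 6.98 and 6.92 in sgPrdx2 livers. Lgr5 to Axin2, Glul to Axin2 and Cyp2e1 to Glul each had an exact permutation p of 0.1, the smallest that 3 against 3 livers can give, and 0.175 after adjustment over the 7 ratios. Neither p accounts for the choice of these ratios by their values, and Axin2 was the only member whose log2 fold change was below 0. The ratios are therefore a description of these livers, and no conclusion is drawn from their p.

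Of 70 tested genes in 6 lists that carry and answer the Wnt signal, 0 rose and 2 fell, 2.86% of them beside 3.33% of all genes called in either direction, which is no more than the background. Of 23 Wnt and R-spondin ligands 12 passed the filter. By edgeR 0 of these were called in either direction, 3 had an unadjusted p under 0.05, and DESeq2 called 1. Over all 17032 genes, 4241 had an unadjusted p under 0.05 in either direction, and DESeq2 called 2118. Wnt9b, a ligand of the central vein endothelium, was at 3.198, 2.65 and 2.89 CPM in sgCtrl and 1.59, 1.52 and 2.21 CPM in sgPrdx2 livers (log2 fold change -0.72, adjusted p = 0.106), and Rspo3, the R-spondin of the same cells, was at 8.70, 10.9 and 9.68 and at 10.7, 9.26 and 8.20 CPM (-0.06, adjusted p = 0.839). Wnt4, the most abundant ligand gene in CPM, was at 0.15 on the log2 scale (adjusted p = 0.790), Wnt5b at 0.83 (adjusted p = 0.178) and Wnt7b at -0.65 (adjusted p = 0.190). The ligands' median was -0.23, with 3 of 12 above 0, and without sgPrdx2 liver 3.2 it was -0.13, with 6 of 12 above 0. Of 17 receptors and co-receptors 15 passed the filter, with 0 called by edgeR, 2 at an unadjusted p under 0.05, 1 called by DESeq2 and a median of -0.15. Fzd8, a Frizzled receptor, was above every sgCtrl liver in every sgPrdx2 liver, at 5.73, 10.4 and 5.23 and at 19.6, 16.3 and 12.4 CPM (1.18, adjusted p = 0.0659), while 2 other Frizzled genes were below every sgCtrl liver in every sgPrdx2 liver. These were Fzd1, at 32.4, 30.6 and 25.9 and at 23.2, 22.9 and 17.2 CPM (-0.49, adjusted p = 0.116), and Fzd3, at 2.60, 1.91 and 1.98 and at 1.64, 1.89 and 0.860 CPM (-0.55, adjusted p = 0.311). Of all genes tested, 16.7% were higher and 17.5% lower in sgPrdx2 livers without overlap. The co-receptors Lrp5 and Lrp6 and the receptor Ryk had log2 fold changes of -0.22, -0.07 and 0.04 (adjusted p = 0.600, 0.843 and 0.830). Without sgPrdx2 liver 3.2 the receptors' median was 0.03, with 8 of 15 above 0, and without sgCtrl liver 7.1 and 7.2 in turn it was -0.05 and -0.25. The summed endothelial markers lay below the sgCtrl range in the same livers, although single markers overlapped. Whether this bears on the ligands and receptors was not tested.

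Among 8 tested inhibitors of 14 listed, 0 rose and 1 fell. Frzb, a secreted Frizzled-related protein, was at 24.0, 22.6 and 24.8 CPM in sgCtrl and 14.8, 15.8 and 12.2 CPM in sgPrdx2 livers (-0.74, adjusted p = 0.0409). The summed stellate and fibroblast markers lay below the sgCtrl range in the same livers, and whether this bears on Frzb was not tested. Dkk3, also secreted, was at -0.69 on the same scale (adjusted p = 0.112) and the Dickkopf receptor gene Kremen1 at -0.14 (adjusted p = 0.559). Of 16 relay genes edgeR called 0, with 3 at an unadjusted p under 0.05, and DESeq2 called 2. Of all 17032 genes 4241 had an unadjusted p under 0.05, and DESeq2 called 2118. Wls, which escorts Wnt proteins to the cell surface, was at 42.6, 36.9 and 33.9 CPM in sgCtrl and 24.2, 27.2 and 18.7 CPM in sgPrdx2 livers (-0.69, adjusted p = 0.0625), and the kinase gene Csnk1e had -0.57 (adjusted p = 0.0727). Btrc, for the ligase that marks beta-catenin for degradation, had 0.31 (adjusted p = 0.150), and the abundant Csnk1a1, Csnk1d and Dvl1 had -0.07, -0.21 and 0.08 (adjusted p = 0.769, 0.425 and 0.725). Of 10 genes for beta-catenin and its nuclear partners 0 were called by edgeR or DESeq2 and 1 had an unadjusted p under 0.05, and Ctnnb1, the beta-catenin gene, was at 281, 337 and 306 CPM in sgCtrl and 277, 283 and 193 CPM in sgPrdx2 livers (-0.30, adjusted p = 0.347). Ctnnbip1, for an inhibitor of beta-catenin, had 0.40 and Tcf7l1, for a TCF factor, -0.32, both without overlap of the groups (adjusted p = 0.129 and 0.205), and the coactivator genes Bcl9, Bcl9l and Pygo2 had -0.30, 0.16 and -0.11 (adjusted p = 0.337, 0.574 and 0.586).

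Of 9 other Wnt feedback and target genes 0 rose and 1 fell, with a median of 0.07. With 1 liver left out the median ranged from -0.06 without sgCtrl 7.2 to 0.29 without sgCtrl 5.1. With scaling to the hepatocyte genes it was -0.70, beside -0.78 for all genes. Nkd2, which encodes an inhibitor that binds Dishevelled, was at 8.86, 6.61 and 6.54 CPM in sgCtrl and 3.10, 2.92 and 2.86 CPM in sgPrdx2 livers, and its log2 fold change was -1.31 (SE 0.18, adjusted p = 0.0328). Notum, the secreted enzyme that inactivates Wnt proteins and is made by pericentral hepatocytes, had 47.6, 27.0 and 17.6 CPM in sgCtrl and 54.8, 47.4 and 61.6 CPM in sgPrdx2 livers (0.83, adjusted p = 0.166), with 5.1 again the highest and 7.2 the lowest control. Its ratio to Axin2, another of the 7 ratios, was 2.61, 1.98 and 1.83 in sgCtrl and 4.86, 4.23 and 8.29 in sgPrdx2 livers (exact permutation p = 0.1, and 0.175 over the 7 ratios). This ratio too was chosen after the values had been seen, which its p does not account for. Rnf43, which removes Frizzled receptors from the surface, and Ccnd1, a cyclin, had log2 fold changes of 0.36 and 0.07 (adjusted p = 0.331 and 0.848).

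For each member the 3 most alike profiles were sought among 14122 other genes that averaged 1 CPM or more, by the root mean square difference of centred log2 CPM over the 6 livers. Rgn had the closest company, with Sucnr1 (0.06), the urea cycle gene Otc (0.06) and Aldh7a1 (0.07). Glul was nearest to Acad12, 6430550D23Rik and E330011O21Rik (0.06, 0.09 and 0.10), and Cyp2e1 to C920006O11Rik, the peroxisomal phytanic acid oxidase gene Phyh and Hebp1 (0.07, 0.08 and 0.09). Lhpp was nearest to Ttc39c, Ang and Gm826 (0.08, 0.11 and 0.14), and Axin2 to Tnik, Col8a2 and Dll1 (0.08, 0.09 and 0.09). Lgr5 was nearest to the mitochondrial tRNA gene mt-Tm, Gm31522 and Mcc (0.09, 0.12 and 0.13), and Slc1a2 to Gal3st1, Cyp2c67 and Hopx (0.13, 0.15 and 0.16). The nearest profiles of Oat were those of Pck1, Ctcflos and Amdhd1 (0.19, 0.20 and 0.22), those of Tbx3 were of Acaa1b, Tpm2 and Gm12454 (0.12, 0.17 and 0.21), and those of Cyp1a2 were of A930033H14Rik, Slc37a4 and Ces1d (0.11, 0.22 and 0.22).

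Most members were counted from sequence of their own. The transcripts of Oat, Rgn, Axin2, Tbx3 and Lhpp shared no stretch of 50 bases with a transcript of another gene in GENCODE M21 (GRCm38). Glul shared 11.9% of its stretches, with the pseudogene Glns-ps1, Mir8114 and AC134576.3, and Cyp1a2 shared 4.79%, all with Cyp1a1, so that a small part of these counts is uncertain. The shares were 3.87% for Cyp2e1, 0.647% for Lgr5 and 0.380% for Slc1a2. Exons of other genes covered at most 3.80% of a member's exon length, including those of antisense genes for Axin2, Tbx3 and Slc1a2, and whether the counting used strand was not given in the sources used here.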

How the data were processed

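Whole-liver RNA-Seq from 6 mice (3 sgCtrl, 3 sgPrdx2) was analysed from the raw counts per gene that the authors deposited. The submitters' processing notes name HISAT2, HTSeq, DESeq2 and GRCm38, and versions and strand setting are not given in the sources used here. A deposited table of the authors' own comparison (fold changes and p-values) was not used. Groups were taken from the sample labels. The 10 members and the other gene lists were chosen with earlier results of these data known.

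edgeR 4.0.16 (R 4.3.3) was used on the counts with filterByExpr (minimum count 10), TMM scaling, and the quasi-likelihood test (glmQLFit, glmQLFTest) over 17032 genes without covariates. A gene was called where its p, adjusted by Benjamini-Hochberg, was under 0.05. CPM values are TMM-scaled, ± is the SD over livers, and 95% intervals are the log2 fold change ± the t quantile times the SE. From each list, called genes (up to 6 by p), or otherwise the 3 with the smallest p, and the 3 most abundant in CPM were named, with the 3 nearest profiles of each member, and Ass1 was named after its values were seen. A gene that this rule selects is not reported here. Each liver was 1 mouse, and no pair of libraries agreed within sampling noise. DESeq2 1.42.0, other scalings and filters, and leaving out each liver were tried as alternatives. The floor of 3 counts covers counting error only.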

Additional observations from a re-analysis of the deposited data

How the results depend on the processing

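Of the members, Cyp2e1, Rgn, Lhpp, Oat and Axin2 kept their direction in all 14 alternatives, Glul, Cyp1a2, Lgr5 and Slc1a2 in 13 and Tbx3 in 12. Scaling to the hepatocyte genes turned Glul (-0.28), Cyp1a2 (-0.33), Lgr5 (-0.071), Tbx3 (-0.57) and Slc1a2 (-0.14), the median of the members (-0.11) and that of the other pericentral genes (-0.27), and the periportal median was 0.18. By construction this scaling moves all genes down (median -0.78), and 10661 genes were called, 72 higher and 10589 lower, beside 567 (305 higher and 262 lower) with TMM. With 1 liver left out Tbx3 ranged from -0.0079 (without sgCtrl 7.2) to 0.60 (without sgCtrl 5.1). DESeq2 called 2118 of 17032 genes and 4 members (Cyp2e1, Oat, Rgn and Lhpp), and no filter on low counts called 1128 of 28631 genes and the same 4 members. An adjusted p under 0.1 gave 1767 genes and 3 members, and scaling to the reference genes called 656 genes and 2 members (Cyp2e1 and Rgn). The cause of these differences between tools and filters was not tested. With 1 liver left out, edgeR called 0 to 619 genes and 0 to 1 members, which was Rgn without sgCtrl 7.1. It called 0 genes without sgCtrl 5.1, sgCtrl 7.2, sgPrdx2 1.1 or sgPrdx2 1.3, where 3114, 3119, 3328 and 3993 genes had an unadjusted p under 0.05, and DESeq2 was not run on 5 livers. The medians were then 0.44 to 0.84 for the members, 0.38 to 0.78 for the other pericentral genes, with the highest without sgCtrl 5.1, and 0.69 to 1.12 for the periportal genes. No paired analysis was possible because the groups share no replicate numbers. Lgr5 had the lowest CPM of the members, at 4.34 in sgCtrl 7.2, which is above the floor of 0.0571 CPM in that liver.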
